A study of Mus musculus with 4 samples.

Results

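The genes described here are 79 transcripts that were well expressed in control ID4-EGFP+ spermatogonia of the mouse and stood at no more than 0.5 times the control level in Cnot3-cKO cells. Bulk libraries of total RNA were read, 2 per group, and each gene's read count was scaled to CPM, its count divided by the file total and multiplied by 1000000. Values are given below for replicate 1 and then replicate 2 of a group. A gene was taken when both control libraries held at least 8 CPM, the mean of the Cnot3-cKO libraries was at most 0.5 times the control mean, and both Cnot3-cKO libraries lay below both controls. Of 54920 genes listed, 10475 met the floor of 8 CPM once the symbols named below were left out, and 79 of those (0.754%) met the whole rule. The mirrored rule, at least double the control mean with no overlap, took 291 genes (2.78%). Both Cnot3-cKO libraries lay below both controls for 3800 of the 10475 genes (36.3%), and above both controls for 3260. Because the members were chosen on these same values, their levels are given as a description and carry no test. Another 7 genes that met the rule (Cnot3, Dmrtb1, Lin28a, Meioc, Rarg, Sox3 and Stra8) and mitochondrial, histone and small RNA symbols were left out of the set.

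All cells came from testes at postnatal day 8 (P8) of animals given 4-OHT, the active form of tamoxifen, from P1 to P3. The control carried Cnot3flox/flox and Id4-eGfp without Ddx4-creER and is labelled wild-type, although both alleles of Cnot3 are floxed. The Cnot3-cKO carried Cnot3flox/flox, Ddx4-creER and Id4-eGfp. Ddx4-creER puts the inducible recombinase in germ cells, so the Cre transgene itself was present in only one of the groups, and its effect cannot be told apart from that of the deletion. The EGFP reporter at Id4, a gene of spermatogonial stem cells, was used to sort the cells.

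CNOT3 is a non-catalytic subunit of CCR4-NOT, the large complex that shortens the poly(A) tails of messenger RNAs and so starts their decay. The complex is brought to chosen transcripts by RNA-binding proteins such as the NANOS and PUM families and by the microRNA machinery. Spermatogonial stem cells are the germ cells on which lifelong sperm production rests, and they either renew themselves or enter differentiation. A transcript that is lower after loss of a decay factor is therefore read here only as a level, since the libraries give no decay or synthesis rate.

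Cnot3, the targeted gene, stood at 57.7 and 48.7 CPM in the control libraries and at 19.6 and 20.4 CPM in the Cnot3-cKO libraries. The deposited counts do not say which exons these reads covered. The libraries held 40957899 and 43378493 reads in the control group and 22192964 and 28019626 in the Cnot3-cKO group. Summed markers common to germ cells were at 6372 and 6665 CPM in controls and at 6031 and 6235 CPM in Cnot3-cKO cells. Of the 12 genes in this list, 5 were higher and 4 lower in both Cnot3-cKO libraries than in both controls. Zbtb16, among those lower, is also in the next list. Of all 10475 genes at the floor, 3260 were higher in this way and 3800 (36.3%) lower, to be set beside the counts of each marker list. Of 10 markers of undifferentiated spermatogonia, 7 were higher in both Cnot3-cKO libraries (Id4, Gfra1, Etv5, Ret, Eomes, T and Bcl6b) and Zbtb16 was lower in both. Gfra1, a receptor for GDNF, was at 94.1 and 88.2 CPM in controls and 171 and 184 CPM in Cnot3-cKO, and Id4 was at 20.3 and 19.1 CPM against 37.0 and 47.4 CPM. Zbtb16, a transcription factor of these cells, was at 428 and 353 CPM against 248 and 216 CPM. The part of these differences in the members' levels was not tested. Summed markers of each other testis cell type listed were higher in both Cnot3-cKO libraries, though not every gene was. The 16 Sertoli cell markers summed to 478 and 476 CPM in controls against 1443 and 1432 CPM, with 15 of the 16 higher in both Cnot3-cKO libraries. The Leydig list of 6 genes went from 361 and 313 CPM to 848 and 916 CPM, although Insl3, its defining gene, had no read in any library. The macrophage list of 9 genes went from 203 and 128 CPM to 475 and 388 CPM. The 7 endothelial genes summed to 25.6 and 22.4 CPM in controls and 38.4 and 44.1 CPM in Cnot3-cKO. The 7 peritubular myoid genes summed to 46.6 and 51.1 CPM against 52.9 and 59.4 CPM. Both Cnot3-cKO libraries were above both controls for 5 of the 6 Leydig, 8 of the 9 macrophage, 4 of the 7 endothelial and 4 of the 7 peritubular myoid genes. Mylk made up most of the peritubular sum, at 32.9 and 35.0 CPM in controls and 32.1 and 33.2 CPM in Cnot3-cKO. None of the 79 genes is in any of these marker lists, and the part of these other cells in the members' levels was not tested. In bulk RNA, fewer cells of a type and less RNA per cell cannot be told apart.

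Together the 79 genes held 0.308% and 0.290% of all reads in the controls, and 0.124% and 0.127% in the Cnot3-cKO libraries. Their control means ran from 8.50 to 201 CPM with a median of 25.5 CPM, below the median of 45.1 CPM of all 10475 genes at the floor. The ratio of the Cnot3-cKO mean to the control mean had a median of 0.458 and ran from 0.211 to 0.5, while the median over all genes at the floor was 0.978. Most members lay close to the limit, with 43 of 79 above 0.45 and 8 at or below a ratio of 0.333. Every library held at least 67 reads for every member. Members varied somewhat more between libraries of 1 group than other genes did. The median fold between the control libraries was 1.17 for members and 1.09 for all genes at the floor, and between the Cnot3-cKO libraries 1.16 against 1.07. The plot of ratio against control level shows how few of the genes above 100 CPM reached the limit.

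**Figure D1:**
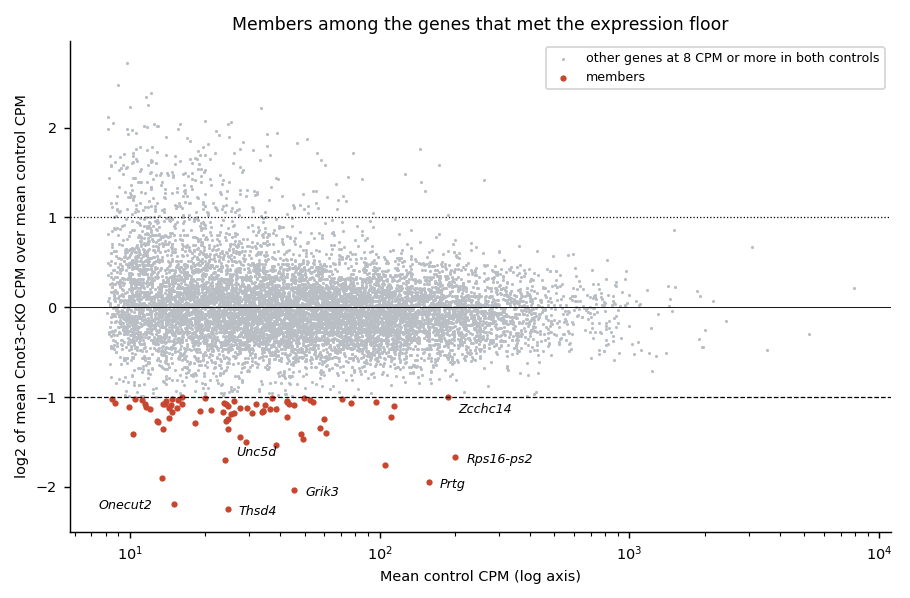
The log2 ratio of mean Cnot3-cKO CPM to mean control CPM is plotted against the mean control CPM on a log axis for the 10475 genes with at least 8 CPM in both controls. Red points are the 79 members, at or under the dashed line that marks a ratio of 0.5, and the dotted line marks a doubling. Only 6 members have a control mean above 100 CPM.

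The limit and the floor both cut through a continuous range. Just inside the ratio limit were Nanos3 at 0.5, Zcchc14 at 0.498 and Epb41l4a at 0.497, and just outside it Camk4 at 0.501, Fam217b at 0.504 and Reln at 0.505. The members nearest the floor were Myo1h, Fendrr and Ntrk3, each with a control library under 9 CPM. Lhx8, Pcdh19 and Fzd10, with ratios of 0.310, 0.391 and 0.377, missed the floor in 1 control library or both. Gm42418 had a ratio of 0.462 but overlapped between the groups and was not taken. Leaving out each library in turn and applying the rule to the remaining 3, 34 of the 79 genes met it all 4 times, among them all 18 genes with a ratio of at most 0.4. Omitting a control cost 17 genes (replicate 1) or 23 genes (replicate 2) their place, and omitting a Cnot3-cKO library cost 21 (replicate 1) or 11 (replicate 2).

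Genes of axon guidance, cell adhesion and extracellular matrix formed the largest group by role, with 13 members whose summed level was 531 and 501 CPM in controls and 188 and 205 CPM in Cnot3-cKO. Thsd4, which encodes a matrix protein that binds fibrillin microfibrils, had the lowest ratio of all members (ENSMUSG00000032289.15, chr9:59966931-60522046, minus strand, GRCm38). Thsd4 was at 26.2 and 23.3 CPM in controls and at 4.10 and 6.32 CPM in Cnot3-cKO, a level 4.75-fold lower. Both Cnot3-cKO values were far below both controls. Prtg encodes protogenin, a receptor of the DCC family (ENSMUSG00000036030.9, chr9:72806874-72917291, plus strand). Prtg stood at 162 and 152 CPM in controls and at 40.1 and 41.2 CPM in Cnot3-cKO, a ratio of 0.259, and its libraries lay close together within each group.

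Netrin receptors of the UNC5 family, which steer migrating cells and axons and can signal cell death when unbound, contributed 3 of these 13 genes. Unc5d was at 25.3 and 22.8 CPM in controls and at 7.25 and 7.53 CPM in Cnot3-cKO. Unc5b was at 32.6 and 44.2 CPM against 13.8 and 21.2 CPM. Unc5a was at 9.96 and 11.1 CPM against 4.64 and 5.78 CPM. The gap was widest for Unc5d, while Unc5b differed more between its own libraries. Rgma, a membrane-anchored ligand of neogenin, was at 12 and 12.1 CPM in controls and at 5.0 and 6.03 CPM in Cnot3-cKO. Dab1, the adaptor that carries the reelin signal inside the cell, was at 20.2 and 17.8 CPM against 8.2 and 8.89 CPM. Both genes were separated by a wide margin from their controls, but Rgma no longer met the rule without Cnot3-cKO replicate 1, and Unc5a and Unc5b without control replicate 2 or Cnot3-cKO replicate 1. Fras1, a matrix protein of epithelial basement membranes, was at 112 and 81.1 CPM in controls and at 46.0 and 46.7 CPM in Cnot3-cKO. It no longer met the rule without control replicate 1. The remaining 5 genes of the group were Tspan33, Fam171b, Smagp, Dchs1 and Cdh24, with ratios from 0.390 to 0.496.

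Promoters of 3 of these 5 netrin and DCC family genes, together with that of Thsd4, are shown because the genes fell in the same set. Each sequence runs from 250 bases before to 50 bases after the start of the RefSeq transcript (GRCm38.p6), on the strand of the gene, with the GC box GGGCGG or its reverse complement CCGCCC in capitals. Prtg (chr9:72807024-72807323, plus strand), Unc5b (chr10:60831532-60831831, minus strand) and Unc5a (chr13:54949161-54949460, plus strand) have 35, 36 and 37 CpG dinucleotides in these 300 bases, and Thsd4 (chr9:60510986-60511285, minus strand) has 6.
Prtg: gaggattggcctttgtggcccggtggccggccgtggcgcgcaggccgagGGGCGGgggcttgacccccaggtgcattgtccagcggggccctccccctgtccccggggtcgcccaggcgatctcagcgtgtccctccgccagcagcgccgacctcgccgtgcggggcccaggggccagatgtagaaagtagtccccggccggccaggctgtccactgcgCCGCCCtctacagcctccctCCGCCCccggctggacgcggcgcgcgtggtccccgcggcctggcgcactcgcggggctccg
Unc5b: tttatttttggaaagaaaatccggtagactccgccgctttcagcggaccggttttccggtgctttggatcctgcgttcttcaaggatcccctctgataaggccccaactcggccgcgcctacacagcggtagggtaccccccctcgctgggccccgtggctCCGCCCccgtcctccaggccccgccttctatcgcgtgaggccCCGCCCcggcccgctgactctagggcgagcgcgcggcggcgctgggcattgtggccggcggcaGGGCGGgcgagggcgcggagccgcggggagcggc
Unc5a: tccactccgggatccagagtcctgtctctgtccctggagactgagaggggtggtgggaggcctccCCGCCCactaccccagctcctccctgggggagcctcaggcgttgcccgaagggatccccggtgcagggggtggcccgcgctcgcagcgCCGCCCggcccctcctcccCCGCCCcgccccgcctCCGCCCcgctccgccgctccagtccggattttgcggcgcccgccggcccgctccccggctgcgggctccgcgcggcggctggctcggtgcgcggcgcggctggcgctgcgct
Thsd4: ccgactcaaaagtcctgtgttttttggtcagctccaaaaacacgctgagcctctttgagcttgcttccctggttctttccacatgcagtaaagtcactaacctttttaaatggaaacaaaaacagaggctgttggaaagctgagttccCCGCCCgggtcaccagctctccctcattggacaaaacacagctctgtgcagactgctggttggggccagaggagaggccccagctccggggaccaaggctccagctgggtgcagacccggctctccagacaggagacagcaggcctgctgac
At the start shown, Thsd4 thus lacks the dense CpG of the other 3. That start lies inside the gene, and the annotated 5′ end at chr9:60522046 is not shown.

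Ion channels and receptors for transmitters made up 9 members, with a summed level of 343 and 347 CPM in controls and 118 and 137 CPM in Cnot3-cKO. Grik3, a kainate-type glutamate receptor subunit, was at 45.7 and 45.3 CPM in controls and at 10.1 and 12.1 CPM in Cnot3-cKO, a level 4.10-fold lower. Chrna4, a subunit of neuronal nicotinic acetylcholine receptors, was at 51.6 and 45.4 CPM against 17.9 and 18.7 CPM. Grik3 lies at chr4:125490700-125714173 and Chrna4 at chr2:181018380-181043546 in the GENCODE annotation. In both genes the Cnot3-cKO libraries lay well under both controls. Kcnd3, a pore-forming subunit of the A-type potassium current, was at 31.2 and 30.3 CPM in controls and 13.0 and 14.1 CPM in Cnot3-cKO. Npffr1, Hcn2, Clic6, Tmem63c and Nkain1 had ratios from 0.375 to 0.475.

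Secreted factors, growth factor receptors and their adaptors numbered 11. Fgfr1, a receptor for fibroblast growth factors, was at 49.9 and 49.1 CPM in controls and at 18.3 and 17.3 CPM in Cnot3-cKO, a ratio of 0.360. Dkk3, a secreted Dickkopf family protein, was at 30.2 and 28.0 CPM against 10.3 and 10.3 CPM. Cxcl12, the chemokine that guides cells bearing CXCR4, was at 30.2 and 25.2 CPM against 11.3 and 9.17 CPM. These 3 genes had the lowest ratios of the group. Grb10, an imprinted adaptor that restrains signalling by the insulin and IGF1 receptors, was at 110.2 and 112 CPM in controls and 47.1 and 48.5 CPM in Cnot3-cKO. Acvr2b, an activin receptor, was at 50.3 and 58.0 CPM against 24.1 and 28.0 CPM. Rspo4, a secreted enhancer of Wnt signalling, was at 13.9 and 13.3 CPM against 7.57 and 5.32 CPM. The rule allows no overlap in any member, and Acvr2b and Rspo4 sat near its limit. The remaining members, Tg, Scube2, Pth1r, Apln and Ntrk3, had ratios from 0.413 to 0.477.

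Transcription factors and chromatin proteins numbered 9. Onecut2, a homeobox factor of the cut class, was at 18.8 and 11.3 CPM in controls and at 3.02 and 3.57 CPM in Cnot3-cKO, the second lowest ratio of all members at 0.219. Its control libraries differed 1.66-fold, and the lower of them was still well above both Cnot3-cKO libraries. Sall1, a zinc finger repressor, was at 71.2 and 50.8 CPM against 25.1 and 21.3 CPM. Sox11, an SRY-box factor of neural and mesenchymal progenitors, was at 42.9 and 42.3 CPM against 16.2 and 20.4 CPM. E2f2, which drives genes of S phase entry, was at 11 and 17.7 CPM against 7.52 and 5.67 CPM. Of these, E2f2 had the narrowest gap between its lowest control and its highest Cnot3-cKO library. Ebf3 was at 12.4 and 13.3 CPM in controls and 4.33 and 6.28 CPM in Cnot3-cKO, and Pou6f1 at 27.1 and 31.6 CPM against 13.2 and 13.8 CPM. Both are developmental transcription factors, and their libraries did not overlap, as the rule requires of every member. In Morc4 the Cnot3-cKO libraries stood at 4.96 and 8.60 CPM, the widest such spread of any member, against 13.2 and 14.7 CPM in controls. Sertad4 and Zfp773 had ratios of 0.423 and 0.459.

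Among 6 RNA regulators and noncoding RNAs, Zcchc14, a CCHC zinc finger protein, had the highest level and Oasl2, an interferon-induced protein of the oligoadenylate synthetase family, the lowest ratio. Zcchc14 was at 179.7 and 194 CPM in controls and at 91.0 and 95.5 CPM in Cnot3-cKO. It no longer met the rule without control replicate 2 or Cnot3-cKO replicate 1. Oasl2 was at 42.4 and 34.2 CPM against 15.1 and 11.5 CPM. Mex3d, a KH-domain protein that binds AU-rich 3′ UTRs, was at 27.6 and 40.6 CPM against 12.1 and 18.4 CPM. Nanos3, which protects germ cells in the embryo and belongs to the family that recruits CCR4-NOT, was at 15.8 and 16.4 CPM against 7.89 and 8.21 CPM. Nanos3 was the member nearest the limit of the rule, with little spread within either group. Fendrr is a long noncoding RNA with a ratio of 0.464, and Eif2c5, annotated as a lincRNA, had a ratio of 0.390.

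Kinases and genes of the cell cycle or of DNA replication and repair numbered 8, with ratios from 0.437 to 0.492. Cdk6, the G1 kinase that pairs with D-type cyclins, was at 77.8 and 63.2 CPM in controls and 33.0 and 36.4 CPM in Cnot3-cKO. Radx, a single-strand DNA binding protein of replication forks, was at 107 and 122 CPM against 50.9 and 55.9 CPM. Rassf3, a RAS association domain protein, was at 80.4 and 73.7 CPM against 37.0 and 36.4 CPM. All 3 were among the 10 members with the highest control CPM, and Rassf3 had the least spread within each group. Cdk6 no longer met the rule without control replicate 1 or Cnot3-cKO replicate 1, while Radx and Rassf3 met it without any 1 library. The others were Nuak1, Camk2n1, Trp53i11, Ctdspl and Poln. Cytoskeletal proteins and regulators of small GTPases numbered 6, led by Fgd5, an exchange factor for CDC42, at 64.9 and 50.7 CPM in controls and 20.7 and 24.5 CPM in Cnot3-cKO. Plekha6, Clmn, Myo1h and Epb41l4a were among the others, with ratios from 0.414 to 0.497. Enzymes and components of ubiquitin or redox systems numbered 8, led by Fbxo40, an F-box protein, at 15.1 and 11.9 CPM against 3.97 and 3.28 CPM. Nudt16l1, Txn2, Anpep, Prodh, Galnt6, Desi1 and Nt5dc2 had ratios from 0.454 to 0.496. No role was assigned to Mroh2a, Tmem56, Gm7694 and Faxc, with ratios from 0.444 to 0.494. The plot of members by library shows the gap between the groups that the rule requires of every member.

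**Figure D2:**
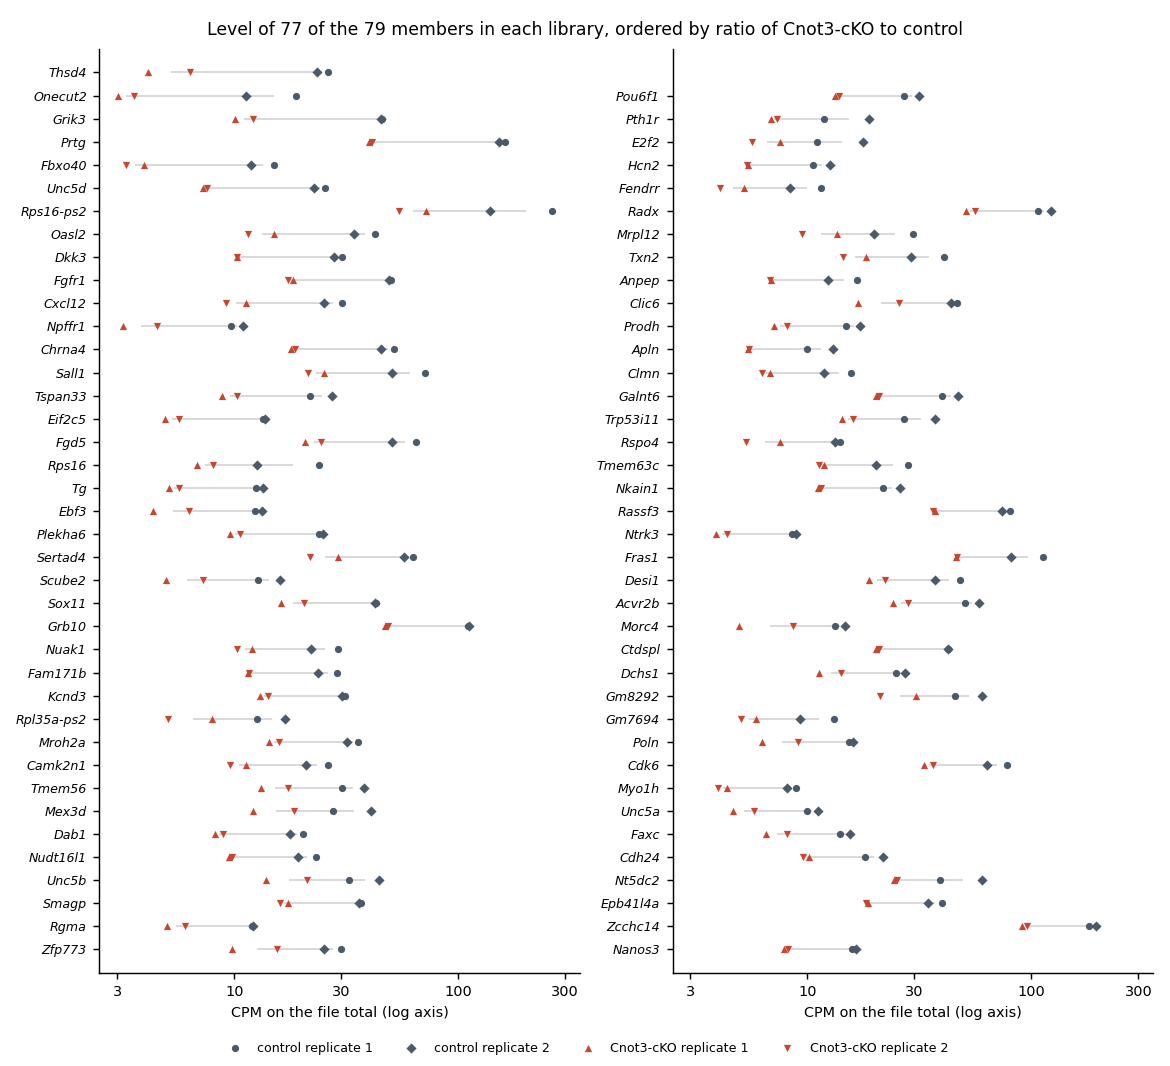
Level of 77 of the 79 genes in each of the 4 libraries, in CPM on a log axis, ordered from the lowest ratio (top left, Thsd4 at 0.211) to the highest (bottom right, Nanos3 at 0.5). Grey symbols are the control libraries, red symbols the Cnot3-cKO libraries, and the line joins the group means.

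Ribosomal protein genes and pseudogenes made up 5 members, and their values are less certain. Rps16-ps2, a processed pseudogene of a small-subunit ribosomal protein, was at 262 and 139 CPM in controls and at 72.0 and 54.1 CPM in Cnot3-cKO, and Rps16 itself was at 23.9 and 12.6 CPM against 6.80 and 8.07 CPM. The 1.89-fold differences between controls in Rps16-ps2 and Rps16 were the widest of any members. In both genes control replicate 1 was the highest library. Rps16-ps2, Rpl35a-ps2 and Gm8292 are processed pseudogenes, near copies of expressed genes, so reads could have been divided among copies. Mrpl12, the other protein-coding gene of the 5, was at 29.5 and 19.9 CPM against 13.6 and 9.49 CPM. Mrpl12 no longer met the rule without control replicate 1 or Cnot3-cKO replicate 2. Set per kilobase of exon, Rps16-ps2 had the highest control level at 455 CPM per kb. Among the protein-coding members the highest were Smagp at 24.9, Zcchc14 at 24 and Nt5dc2 at 20.9 CPM per kb, and Prtg, which is long, stood at 17.2 CPM per kb. Antisense or neighbouring genes shared exon bases with 24 members, over 20% of the exon bases in Myo1h (25.8%, with Kctd10) and Nudt16l1 (28.7%, with Gm16861). The strand setting of the counting is not given in the sources used here, so reads of such pairs cannot be told apart.

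Relatives of the members were examined as whole families, to see whether a low level was shared by receptors, ligands and partners that the rule did not take. The 20 lists, of which 18 held a member, contained 259 other genes that could be tested with edgeR's quasi-likelihood test across all 23952 genes with enough reads, with Benjamini-Hochberg adjustment. A gene was called when its adjusted p was under 0.01 and its fold change over 2. All 79 members were called lower, and nothing is read from this because the rule used the same contrast. Over all tested genes 176 were called lower (0.735%) and 965 higher (4.03%). Among the 259 relatives 18 were called lower and 20 higher, 6.95% and 7.72%, and their median log2 fold change was -0.10, against 0.01 over all tested genes. At any fold, an adjusted p under 0.01 with a lower level was found for 41 relatives (15.8%), against 4.70% of all tested genes. With a higher level it was found for 26 relatives (10%), against 6.21% of all tested genes. The lists were drawn up with earlier results of these libraries known, so these shares are no independent support.

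In the netrin and DCC family, 5 genes were members and none of the 12 other tested genes was called lower. Neo1, the neogenin receptor, was at 232 and 238 CPM in controls and 229 and 242 CPM in Cnot3-cKO, a log2 fold change of -0.06 (SE 0.08, adjusted p = 0.655). Rgmb, a sister ligand of Rgma, had a log2 fold change of -0.03 (SE 0.14, adjusted p = 0.922). The sign of both small changes depended on the scaling of the libraries. Ntn1, a netrin, was at 17.4 and 17.9 CPM against 12.4 and 15.2 CPM (log2 fold change -0.41, SE 0.17, adjusted p = 0.104). Ntn4, a secreted netrin, was higher, with 4.30 and 4.24 CPM in controls against 14.6 and 18.3 CPM, a log2 fold change of 1.88 (SE 0.20, adjusted p = 6.51e-05). Chosen after their values were seen, Draxin, a secreted guidance protein, was at 1.76 and 2.56 CPM against 0.676 and 0.928 CPM (log2 fold change -1.48, SE 0.42, adjusted p = 0.0253). Dscam, a netrin receptor, was at 4.27 and 4.82 CPM against 2.16 and 2.32 CPM (log2 fold change -1.08, SE 0.27, adjusted p = 0.0146). Their libraries did not overlap, but neither passed the threshold of 0.01.

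In the reelin pathway the ligand was lower as well as the adaptor Dab1. Reln was at 407 and 369 CPM in controls and 193 and 199 CPM in Cnot3-cKO, a log2 fold change of -1.05 (SE 0.08, adjusted p = 6.18e-06). It missed the members' limit by a small margin, and its call ended with library size scaling (-0.99) and with scaling to germ cell markers (-0.90), which bring it just under 2-fold. Crkl, which binds phosphorylated DAB1, was lower by less than 2-fold (log2 fold change -0.68, SE 0.09, adjusted p = 0.000238). The reelin receptor Lrp8, chosen after its values were seen, was at 31.2 and 34.8 CPM against 16.1 and 19.0 CPM, also by less than 2-fold (log2 fold change -0.97, SE 0.15, adjusted p = 0.000662). The values of Pafah1b1, a microtubule regulator that interacts with the pathway, were 356 and 345 CPM against 372 and 388 CPM (adjusted p = 0.706).

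In the FGF list Fgfr1 was the only member. Fgfr3 was lower by less than 2-fold (log2 fold change -0.91, SE 0.17, adjusted p = 0.00244), as was the decoy receptor Fgfrl1 (-0.65, SE 0.13, adjusted p = 0.00459). The adaptor Frs2 was at 67.9 and 61.5 CPM against 65.8 and 53.1 CPM, and did not pass (log2 fold change -0.19, SE 0.12, adjusted p = 0.313). Fgfr2, which the naming rule did not cover, was at 15.5 and 14.8 CPM against 19.4 and 18.3 CPM. Its difference did not pass (adjusted p = 0.288). Among insulin and IGF genes, Igfbp5, an IGF-binding protein, was called lower, and the insulin receptor Insr, the adaptor Grb14 and the substrates Irs1 and Irs4 were called higher. Without 1 library the calls of Insr (0.88 without control replicate 2), Irs1 (0.96 without control replicate 1, 1.0 without Cnot3-cKO replicate 2) and Irs4 (0.74 without control replicate 2, 0.97 without Cnot3-cKO replicate 2) ended. Grb14, the nearest relative of the member Grb10, went from 19.4 and 17.6 CPM to 59.7 and 56.7 CPM, a log2 fold change of 1.59 (SE 0.12, adjusted p = 5.56e-06). Grb10 and Grb14 therefore moved in opposite directions. Igf1r was lower by less than 2-fold, with a log2 fold change of -0.67 (SE 0.08, adjusted p = 0.000160).

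The ion channel members had few relatives of a like level. No other nicotinic receptor gene of 10 was called in either direction. Of 14 other glutamate receptor genes, Gria3 was called higher, from 0.684 and 0.645 CPM to 2.52 and 2.71 CPM (adjusted p = 0.00483), and none lower. Grik4, a kainate receptor subunit like Grik3, was at 5.62 and 4.06 CPM against 2.70 and 1.57 CPM (log2 fold change -1.25, SE 0.32, adjusted p = 0.0159). It did not pass, but was called lower with no expression filter (-1.28), with the replicate block (-1.27), without control replicate 2 (-1.47) and without Cnot3-cKO replicate 1 (-1.69). Chrna7 was at 10.7 and 11.3 CPM against 7.57 and 8.21 CPM (adjusted p = 0.0605), and Grik5 at 7.64 and 9.41 CPM against 11.3 and 11.7 CPM (adjusted p = 0.225). Neither Chrna7 nor Grik5 passed the test.

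**Figure D3:**
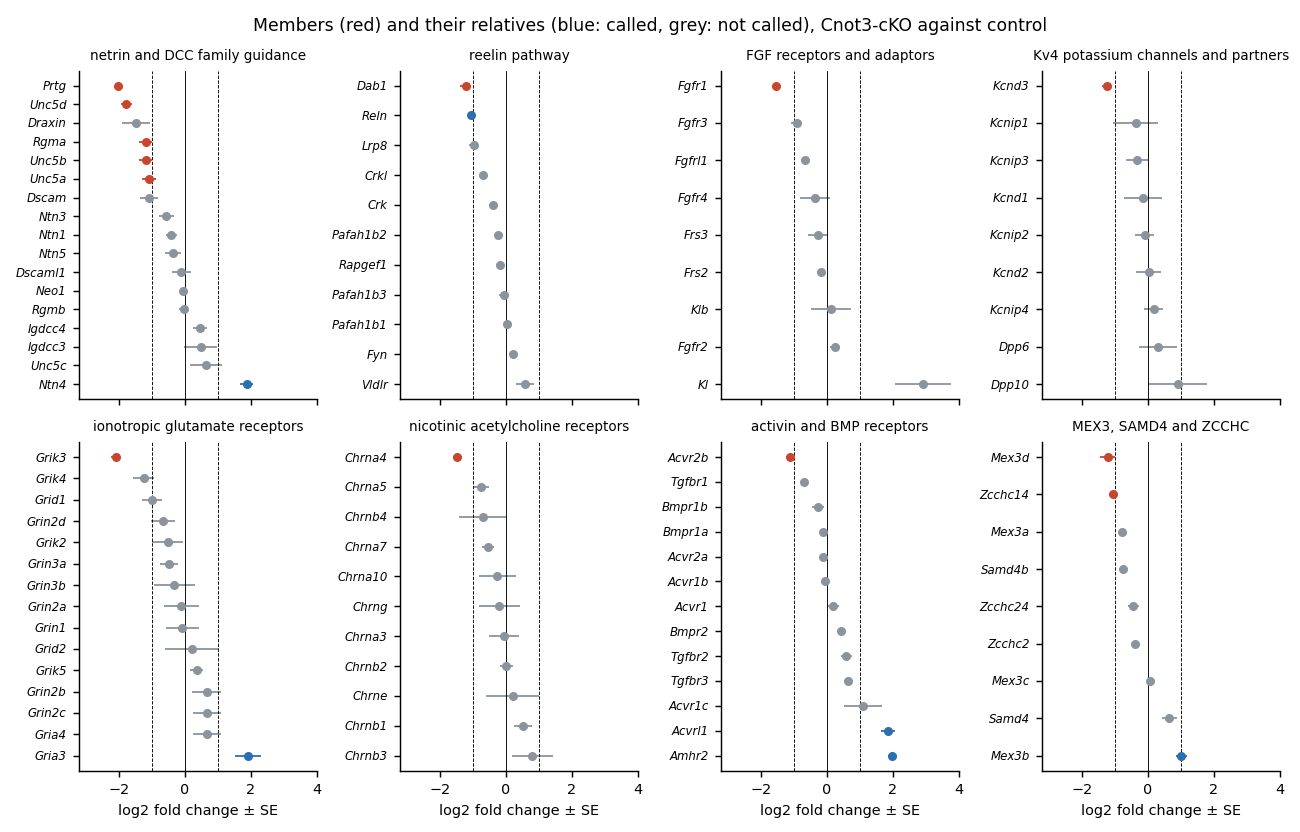
log2 fold change of Cnot3-cKO against control with its standard error, from edgeR with 2 libraries per group, for the tested genes of 8 families. Members are red and were chosen for a low value, relatives called in either direction are blue and relatives not called are grey, and dashed lines mark 2-fold. The lowest value of each panel is a member, although the rule did not require this, since relatives under its floor could lie lower. Reln in the reelin pathway is the only blue point below 0.

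Transcription factor families held most of the relatives called lower. The list of RUNX, GATA, TBX, EBF and GLI factors, with Ebf3 as a member, had 6 of 22 others called lower (Runx3, Gata2, Tbx1, Tbx4, Tbx20 and Gli2) and 2 higher (Gata4 and Gata6). Gata2 was at 5.74 and 6.34 CPM in controls and 1.58 and 2.89 CPM in Cnot3-cKO (log2 fold change -1.48, SE 0.30, adjusted p = 0.00456). Gata4, a Sertoli cell marker, went from 19.9 and 16.6 CPM to 57.5 and 57.4 CPM (log2 fold change 1.59, SE 0.13, adjusted p = 7.98e-06). In the list of SOX, SALL and sine oculis homeobox factors, with Sox11 and Sall1 as members, Sox10 and Six4 were called lower and Sox6, Sox8, Sox9 and Sall2 higher. Six4 was the best expressed of those called lower, at 97.7 and 87.6 CPM against 50.9 and 45 CPM (log2 fold change -1.02, SE 0.11, adjusted p = 6.40e-05). Sox9, which defines Sertoli cells, went from 3.74 and 3.53 CPM to 19.2 and 16.5 CPM, beside the rise in the summed Sertoli markers given above. In the homeobox list Lhx8 and Dlx1 were called lower, and Lhx8, a factor of germ cells in the ovary, had a log2 fold change of -1.75 (SE 0.24, adjusted p = 0.000386). The call of Six4 ended with library size scaling (-0.95) and without Cnot3-cKO replicate 2 (-0.93) or control replicate 1 (-0.96), and that of Gata2 without Cnot3-cKO replicate 1 (-1.14). Scaling to germ cell markers ended those of Tbx1 (-1.21), Tbx4 (-1.82), Tbx20, Sox10 (-1.04) and Dlx1 (-1.30), and 1 omitted library also ended those of Tbx1 (-1.06, control replicate 2), Tbx4 (-1.86, control replicate 1) and Tbx20 (-1.06, Cnot3-cKO replicate 2).

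In the remaining lists Dgkd, a diacylglycerol kinase, was the best expressed relative called lower, at 416 and 416 CPM in controls and 218 and 206 CPM in Cnot3-cKO (log2 fold change -1.04, SE 0.08, adjusted p = 5.56e-06), a call that ended with library size scaling (-0.97) and, just under 2-fold, without Cnot3-cKO replicate 2 (-1.0). Wnt receptor genes Fzd2 and Fzd10, the Wnt enhancer Rspo1, the collapsin response protein Dpysl3 and the actin regulator Wasf3 were also called lower. The calls of Rspo1 (-1.40), Dpysl3 (-0.97) and Wasf3 (-0.97) ended with library size scaling, and that of Fzd2 with upper-quartile scaling (-1.15). Single libraries also ended calls, those of Fzd2 (-1.17) and Rspo1 (-1.20) without Cnot3-cKO replicate 2, that of Rspo1 without control replicate 2 (-1.20) and that of Dpysl3 without Cnot3-cKO replicate 1 (-0.99). Calls in the other direction were Lgr6, Dpysl2, Rassf2, Rassf6, Cdkn1a, Mex3b, Acvrl1 and Amhr2. Those of Dpysl2 (0.99) and Rassf2 (0.95) ended without control replicate 2, that of Lgr6 (0.98) without Cnot3-cKO replicate 2, and those of Cdkn1a (1.09) and Rassf6 (1.45) without Cnot3-cKO replicate 1. Mex3b, a sister gene of the member Mex3d, went from 8.18 and 9.52 CPM to 18.7 and 18.6 CPM (log2 fold change 1.01, SE 0.17, adjusted p = 0.00152), a call that ended in DESeq2 (0.99) and without control replicate 1 (0.88) or Cnot3-cKO replicate 1 (1.0). Mex3a was lower by less than 2-fold (log2 fold change -0.80, SE 0.11, adjusted p = 0.000398). The 4 MEX3 genes therefore did not share a direction, as Mex3c had a log2 fold change of 0.06 (SE 0.09, adjusted p = 0.701). Among 24 other G1 cell cycle genes only Cdkn1a, an inhibitor of cyclin-dependent kinases, was called. Cdk4, a close relative of Cdk6, was at 184 and 210.4 CPM against 159.6 and 165 CPM (adjusted p = 0.0177). Counts for the Kv4 channel and FAT cadherin lists were 0 in both directions, among 8 and 6 tested relatives.

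Sites for let-7 were looked for because Lin28a, whose protein blocks the making of let-7, met the rule before it was set aside. Lin28a was at 413 and 397 CPM in controls and 203 and 195 CPM in Cnot3-cKO. Its paralogue Lin28b was lower by less than 2-fold, at 156 and 164 CPM against 106 and 106 CPM (log2 fold change -0.66, SE 0.09, adjusted p = 0.000284). None of the 21 other genes of the LIN28 and let-7 list was called at 2-fold, while 7 had an adjusted p under 0.01 with a lower level and 1 with a higher one. Dicer1, which cuts microRNA precursors, was among the 7, with a log2 fold change of -0.47 (SE 0.08, adjusted p = 0.000950). Mature microRNAs were not measured in these libraries. The let-7 family shares 1 seed, bases 2 to 8, set in capitals in the RefSeq sequences of 3 family members.
let-7a-5p: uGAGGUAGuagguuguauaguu
let-7g-5p: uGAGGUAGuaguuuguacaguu
let-7i-5p: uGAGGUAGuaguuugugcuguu
A match to this seed is CTACCTC, searched on the sense strand of the 3′ UTR of the coding transcript with the longest coding sequence in GENCODE M21 (GRCm38). It was present in 12 of 73 members with such a transcript (16.4%) and in 914 of 9514 other genes at the floor (9.61%), whose 3′ UTRs are shorter at the median. Per kilobase of 3′ UTR the members held 0.0888 matches and the other genes 0.0718. These members included Cxcl12, Dkk3, E2f2, Fam171b, Faxc, Fras1, Oasl2, Onecut2, Prtg, Txn2 and Unc5a. Matches in Prtg, Oasl2 and Dkk3, which had some of the lowest ratios, are shown with 10 bases on either side, the match in capitals.
Prtg, first (chr9:72912563-72912589, plus strand): tgctgaatagCTACCTCagtttgctgt
Prtg, second (chr9:72913993-72914019, plus strand): cctgtttataCTACCTCctttttaaag
Oasl2 (chr5:114911397-114911423, plus strand): ttacgcctccCTACCTCatccctagac
Dkk3 (chr7:112117725-112117751, minus strand): gtttcagctcCTACCTCactgtcagca
Over all genes at the floor, the median log2 ratio of Cnot3-cKO to control was -0.02 for 8661 genes without a match, -0.07 for 806 with 1 match, -0.12 for 100 with 2 and -0.23 for 20 with 3 or more. Their median 3′ UTR lengths were 953, 2222, 3631 and 5006 bases, so the number of matches and the length moved together. The share of either in these medians was not tested.

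Other short motifs in the members' 3′ UTRs were above the other genes for some letters and below them for others. The PUM motif TGTANATA was found in 18 of 73 members (24.7%) and 26.3% of the others, at 0.146 and 0.249 matches per kilobase. Unc5a, Unc5b, Unc5d, Grik3 and Fgfr1 were among those 18. The AU-rich core TATTTAT was found in 38.4% of members and 28.9% of the others, at 0.260 and 0.284 per kilobase. The miR-17 family match GCACTTT was found in 12.3% and 14.6%, and the miR-34 family match CACTGCC in 21.9% and 15.9%, at 0.140 and 0.126 per kilobase. The miR-9 match ACCAAAG was found in 16.4% of members and 12.8% of the others. It occurred 27 times in 12 members, at 0.171 per kilobase against 0.0959, but 14 of the 27 were in the 14356-base 3′ UTR of Onecut2, and without that gene the rate was 0.0908. These are counts of letters, and no match says only that those letters are absent from the UTR searched.

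Members had transcripts richer in G and C, and longer 3′ UTRs, than the other genes at the floor. The median GC content of the coding transcript was 53.3% for 73 members and 49.7% for 9514 others, and it was 50.1% for the genes that were at least doubled. The median 3′ UTR was 1537 bases in members, 1055 bases in the others and 1199 bases in the doubled genes. Promoters of 58 members had a median of 26.0 CpG dinucleotides, those of 7869 others 23.0 and those of 217 doubled genes 15.0. GC boxes were found on either strand in 41 of 58 members' promoters (70.7%), in 69.1% of the others at the floor, in 59.9% of the doubled genes and in 36.2% of all 27025 promoters in the table. CCAAT boxes (CCAAT) were found in 29.3% of members and 40.2% of the others, and TATA boxes (TATAAA) in 6.90% and 6.18%. Grik3 had the most CpG-rich promoter of the members named above, with 50 CpG dinucleotides and 7 GC boxes in 300 bases. Thsd4 had 6 and 1 at the start inside the gene shown above. Members were spread over the genome, with 9 of 79 on chromosome 7, 6 each on chromosomes 1, 4, 5, 8, 9, 10 and 15, and 4 on the X chromosome.

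**Figure D4:**
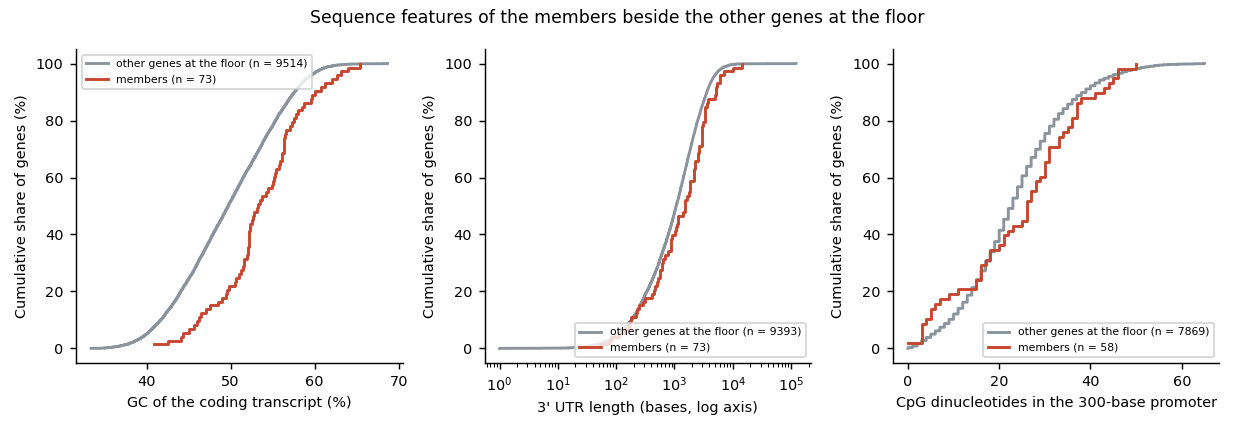
Cumulative share of genes against the GC content of the coding transcript, the 3′ UTR length on a log axis and the number of CpG dinucleotides in the 300-base RefSeq promoter, for members (red) and the other genes with at least 8 CPM in both controls (grey). The members' GC curve lies to the right of the others, with medians of 53.3% and 49.7%.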

How the data were processed

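ID4-EGFP+ cells of P8 testes were sorted, and total RNA was made into stranded libraries. Per the labels and the study's methods, the authors removed reads under a mean Phred quality of 20, aligned with STAR to mm10 and assigned reads to GENCODE genes with featureCounts, whose strand and multi-mapping options are not given in the sources used here. The deposited values are raw read counts per gene symbol, with 22192964 to 43378493 reads per library. Every listed symbol named a gene.

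CPM was computed on the file total with Python 3.11.15. Members and family lists were chosen with earlier results of these data known. Relatives were tested with edgeR 4.0.16 (R 4.3.3; TMM, filterByExpr, quasi-likelihood test, Benjamini-Hochberg), called at adjusted p under 0.01 and over 2-fold, and DESeq2 1.42.0 served as an alternative. The fit was checked on simulated counts with the same spread for every gene and large changes in well-counted genes only. That check does not cover calls near 2-fold or in genes with few reads. The labels do not say whether the 2 libraries of a group came from separate animals, and the study's legend describes more biological replicates per group than the 2 analysed here, so p-values measure only the spread between these samples, which may be technical. With 2 against 2, the smallest exact two-sided permutation p is 0.333. Named genes were the 10 members with the lowest ratio, the 10 with the highest control CPM, those beside the limit, members in a family list, called relatives, and for the families described up to 3 further relatives by control CPM. Other members are named by role, after their values were seen. GENCODE M21 records were found for 78 members and a RefSeq record for Radx, 73 had a coding transcript and 58 a RefSeq promoter. Counts and sums cover all 79 members, of which 2 are not reported by name here. Roles were assigned after the members were known.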

Additional observations from a re-analysis of the deposited data

How the results depend on the processing

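The set of 79 genes depended on the limits that define it. It held 52 genes at a floor of 16 CPM, 2073 with no floor, 222 at a limit of 0.6 and 18 at a limit of 0.4. Scaling to the germ cell markers, a list that includes Zbtb16, gave 50 genes, all of them among the 79. This scaling moved the median log2 fold change of all tested genes from 0.01 to 0.16. TMM, DESeq2 and upper-quartile scaling gave 106, 113 and 89 genes and a floor of 4 CPM 117. Without 1 library the set held 79 to 102 genes. Genes called lower numbered 176, but 86 with germ cell scaling, 285 with no expression filter and 284 at an adjusted p under 0.05, and 217 to 271 without 1 library, with the most without Cnot3-cKO replicate 2. Genes called higher numbered 965, and 1452 at an adjusted p under 0.05. Relatives called lower fell from 18 to 6 with germ cell scaling. Of 455 values of the 35 members that the naming rule covers under the alternatives, 51 moved by more than 1 SD. None changed sign, but the rule that chose the members made this near certain, so it is no support.

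Same-numbered libraries deviated from their group means together with a correlation of 0.110 over 10475 genes. With only 2 numbers and no label that ties them, the libraries share only a number. A stricter rule, in which each Cnot3-cKO library was at most 0.5 times the control of the same number, took 47 genes. In a separate edgeR fit with the replicate number as a block, 217 genes were called lower.

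Signs changed for 7 relatives with small changes, in 18 of 1585 values, and the cause was not tested. With germ cell scaling the log2 fold change was 0.033 for Bmpr1a, 0.060 for Igf2r, 0.089 for Neo1 and 0.12 for Rgmb. With library size only it was 0.0022 for Neo1 and 0.037 for Rgmb. Rgmb was also at 0.0093 with upper-quartile scaling, 0.0031 with a mean count of at least 50, and -0.15 to 0.075 without 1 library. Chrnb2 was at -0.010 with no expression filter, -0.023 after thinning, -0.0070 in DESeq2 and -0.072 to 0.092 without 1 library. Lhx1 was at -0.28 to 0.42 and Mex3c at -0.040 to 0.15 without 1 library. Calls of named relatives and other named genes ended in 64 of the values and were gained in 10, and the relatives called lower under every scaling run were Fzd10, Gata2, Gli2, Igfbp5, Lhx8 and Runx3. Members held at least 351 reads in each control library, and relatives under 1 CPM held far fewer.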
